A study of Caenorhabditis elegans with 4 samples.

Results

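The regions described here are the LIN-35 peaks on chromosome III of Caenorhabditis elegans. They are all rows of the deposited peak lists whose chromosome is III, so position alone decided which peaks belong. The chromosome itself was chosen with earlier results of these data known. Chromosome III held 1038 of the 5374 peaks of the combined list, 810 of the 3804 peaks of replicate 1 and 130 of the 558 peaks of replicate 2. The peaks come from chromatin immunoprecipitation with sequencing (ChIP-seq), in which DNA bound by a tagged protein is recovered with an antibody and sequenced. Hermaphrodites of the strain YL468 were grown at 20 degrees Celsius to young adulthood and precipitated with antibodies against GFP. The labels give 2 precipitated samples and 2 inputs, each numbered as replicates 1 and 2, and they do not say whether the replicates were separate cultures. All samples share 1 genotype: the unc-119(ed3) III allele and the transgene vrIs93, which carries LIN-35 fused to GFP and FLAG behind the mex-5 promoter together with a working copy of unc-119.

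Some features of the strain limit it as a model. The mex-5 promoter is germline-specific per the labels, whereas the chromatin came from whole worms, so a peak shows where the fusion protein was recovered and not the binding of native LIN-35 in all tissues. The strain was not outcrossed. The labels name unc-119 as a gene of chromosome III, and the transgene adds further unc-119 sequence whose reads would be placed at the native locus. Which of the peaks, if any, lies at that locus was not analysed here.

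LIN-35 belongs to the retinoblastoma family of pocket proteins. It does not read DNA sequence itself but is carried to promoters by E2F-type and other DNA-binding partners within the DREAM complex, which keeps cell cycle genes and, outside the germline, germline genes repressed. The autosomes of the worm have gene-dense centres and repeat-rich arms, and no single localised centromere, so position along a chromosome is a known axis of variation for chromatin proteins. No genome sequence or annotation of the build of these lists was used, and for that reason regions are given by WS220 position and no gene is assigned to any of them.

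The 3 lists had different lengths and are not equally sensitive. On chromosome III replicate 2 held 130 peaks where replicate 1 held 810, and the read depth of both is unknown. The main values are therefore given for each list, and shares carry Wilson 95% intervals that cover counting error only. The q-value is the false discovery rate that the authors' peak caller assigned to a peak. It is used to rank peaks within 1 list and to count strong peaks, those with a q under 1e-05. As the lists are not equally sensitive, the share of strong peaks is read within its own list and not between lists. There is 1 library per replicate list, so no difference between lists or between chromosomes was tested.

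Chromosome III was the chromosome with most combined peaks per length. Its 1038 peaks lay at 75.3 per Mb, against 65.7 on chromosome II, 57.9 on chromosome IV and 50.2 over the other 5 chromosomes together. In replicate 1 it carried 58.8 peaks per Mb against 34.7 elsewhere, and in replicate 2 it carried 9.43 against 4.96. The peaks covered 222 kb or 1.61% of the chromosome in the combined list, 162 kb or 1.18% in replicate 1 and 51.1 kb or 0.371% in replicate 2. On chromosomes II and IV the combined list covered 1.19% and 1.17% of the length. In all 3 lists chromosome III was thus denser in peaks than the pooled others. The share of strong peaks was above that of the whole list but not particular to this chromosome: 231 combined peaks of chromosome III, or 22.3% (19.8 to 24.9), had a q under 1e-05, where the share over all chromosomes was 18.3%. It was 22.4% (19.2 to 25.9) on chromosome I and 20.2% (17.8 to 22.8) on chromosome II, whose intervals overlapped that of chromosome III. The corresponding shares were 17.2% (14.7 to 19.9) in replicate 1, against 14.2% over all chromosomes, and 24.6% (18.0 to 32.7) in replicate 2, against 18.3%. In replicate 2 the interval included the share over all chromosomes, and in replicate 1 chromosome I was higher at 19.4% (15.4 to 24.2). Of the 100 combined peaks with the lowest q, 27 lay on chromosome III, as did 24 of the 100 best of replicate 1 and 32 of the 100 best of replicate 2, beside shares of 19.3%, 21.3% and 23.3% of the 3 lists as a whole.

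Along the chromosome, the first 4 Mb were sparse and the rest was dense. Counted in bins of 1 Mb by peak midpoint from the left end, the first 4 bins of the combined list held 48, 55, 45 and 54 peaks. The next 5 held 93, 106, 85, 91 and 78, and the following 4 held 85, 84, 70 and 80. The last bin, 0.78 Mb long, held 64 peaks or 82.1 per Mb. The step lay between the fourth and the fifth bin, and no later bin fell to the level of the first 4. Taking the first 4 Mb together, a boundary chosen after the counts were seen, the density was 50.5 peaks per Mb, against 85.5 per Mb in the remaining 9.78 Mb.

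Both replicates were lower in the first 4 Mb, by a smaller margin in replicate 1. Replicate 1 had 40, 53, 41 and 52 peaks in the first 4 bins, or 46.5 per Mb, and 63.8 per Mb after them. Of its later bins, the one from 9 to 10 Mb was lowest with 42 peaks, which lay within the range of the first 4. Replicate 2 had 4, 8, 2 and 12 peaks there, and 10.6 per Mb after them, and with 12 peaks the fourth bin was as full as the sixth. Several of its later bins, with 7 or 8 peaks, also lay within the range of the first 4. Strong peaks were divided much as all peaks were. Of the 231 combined peaks of q under 1e-05, 44 or 19.0% lay in the first 4 Mb. The same stretch held 19.5% of all combined peaks and makes up 29.0% of the length. Over the 14 bins the densities of the replicates had a Spearman's rho of 0.77 and a Pearson's r of 0.75. This is a description over neighbouring bins of 1 chromosome, which share mappability and the peak caller.

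**Figure D1:**
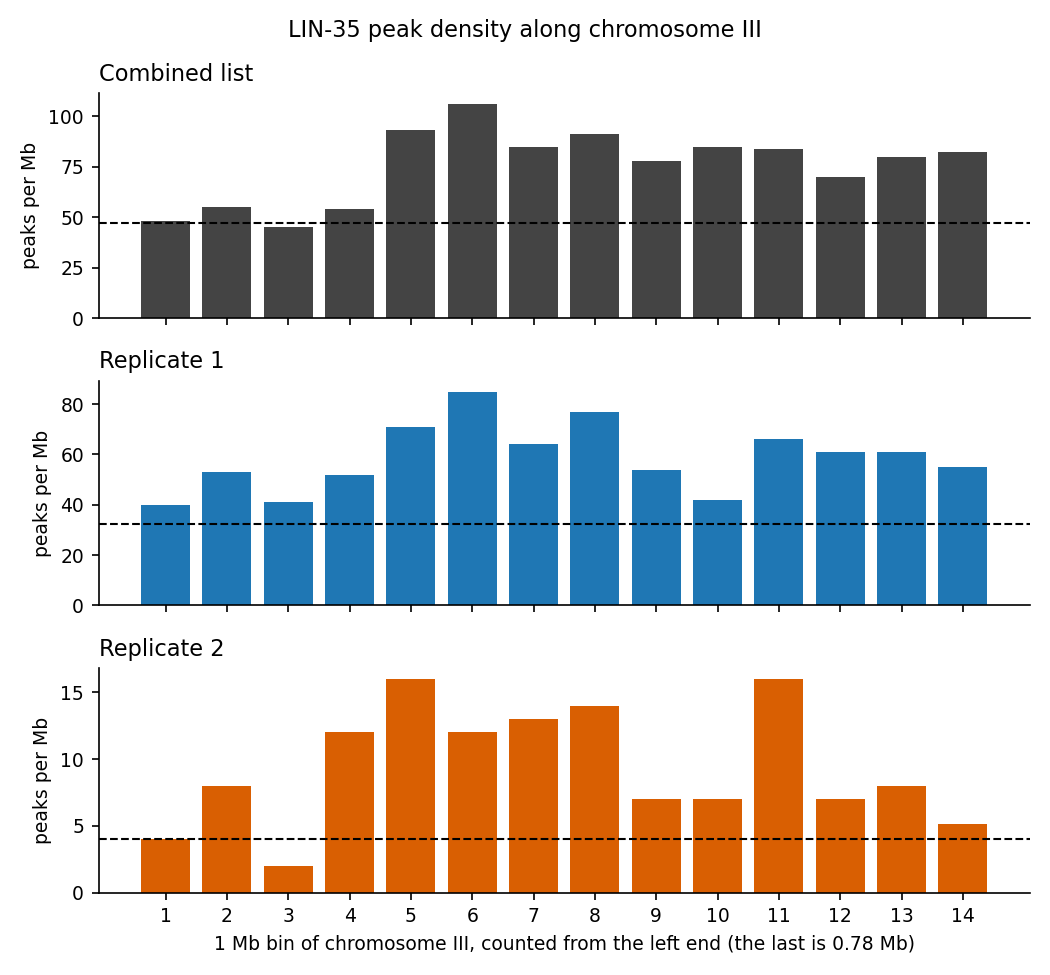
Bars give LIN-35 peaks per Mb (vertical axis) in each 1 Mb bin of chromosome III, counted from the left end (horizontal axis), for the combined list, replicate 1 and replicate 2, each on its own scale. The dashed line is the median full 1 Mb bin of the other 5 chromosomes in the same list (47, 32.5 and 4 peaks); the combined bars step up between the fourth and the fifth bin.

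By count of combined peaks, the richest bin was the sixth, from 5 to 6 Mb, and the poorest the third, from 2 to 3 Mb. The sixth bin held 106 combined peaks covering 23.2 kb and 85 replicate 1 peaks, which was the highest count in that list too. In replicate 2 it held 12 peaks, and the fifth and the eleventh bins were the highest with 16 each. By covered length the highest bin was the fifth in the combined list, with 23.5 kb, and the eighth in replicate 1, with 16.8 kb. Of combined peaks found in both replicates the eleventh bin held most, with 15 against 11 in the sixth. The third bin held 45 combined peaks covering 7.93 kb, 41 of replicate 1 and 2 of replicate 2. In replicate 1 the first bin was the poorest, with 40. The densest and the sparsest bin thus differed 2.36-fold in the combined list. Among 84 full bins of the other chromosomes, the median was 47 combined peaks and the highest 104, in the twelfth bin of chromosome II. Of the 13 full bins of chromosome III, 12 exceeded that median in the combined list, 13 exceeded the corresponding median of 32.5 in replicate 1 and 11 that of 4 in replicate 2. In the combined list the first 4 Mb, at 50.5 per Mb, were close to the 50.2 per Mb of the other chromosomes, and the excess of that list lay in the 9.78 Mb after them. In the single replicates the first 4 Mb were also above the other chromosomes. The densities were 46.5 against 34.7 per Mb in replicate 1 and 6.5 against 4.96 per Mb in replicate 2.

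Divided by length, the right arm was nearly as dense as the centre and the left arm was the sparse part. The arms were taken as the first and the last 25% of the length, 3.44 Mb each, and the centre as the 50% between them. The left arm held 166 combined peaks or 48.2 per Mb, the centre 595 or 86.4 per Mb, and the right arm 277 or 80.4 per Mb. The left arm made up 16.0% (13.9 to 18.3) of the peaks and the right arm 26.7% (24.1 to 29.5), so only the right arm's interval included 25%. In replicate 1 the densities were 44.1, 64.4 and 62.1 per Mb from left to right, and in replicate 2 they were 4.64, 11.8 and 9.58 per Mb. All 3 lists had this order.

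The shares of strong peaks in the arms and the centre had overlapping intervals within each list and were not tested. In the combined list, 22.3% (16.6 to 29.2) of left arm peaks had a q under 1e-05, against 21.8% (18.7 to 25.3) in the centre and 23.1% (18.5 to 28.4) in the right arm. From left to right the shares were 14.5% (9.76 to 20.9), 16.2% (13.1 to 19.9) and 21.0% (16.1 to 27.0) in replicate 1, and 31.2% (14.2 to 55.6), 22.2% (14.5 to 32.4) and 27.3% (15.1 to 44.2) in replicate 2. Overlap of these intervals does not show that the shares are equal. Median widths in the combined list were 165, 161 and 144 bp from left to right. Of the left arm peaks, 26.5% (20.4 to 33.7) overlapped no replicate peak, against 37.0% (33.2 to 40.9) in the centre and 37.5% (32.0 to 43.4) in the right arm. The interval of the left arm overlapped both others only at its upper end, and this difference was not tested.

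Peaks on chromosome III were closely spaced. The median gap between the end of a combined peak and the start of the next was 5.47 kb, with quartiles of 1444 bp and 18.3 kb. The median was 6.64 kb on chromosome II, 7.40 kb on chromosome IV and 9.20 kb over all the other chromosomes. On chromosome III it was 8.49 kb in replicate 1 against 15.3 kb elsewhere, and 55.0 kb in replicate 2 against 105 kb elsewhere. On chromosomes II and IV it was 10.9 and 12.9 kb in replicate 1, and 76.2 and 81.0 kb in replicate 2. Had the 1038 combined peaks been evenly spread, 1 would have stood every 13.3 kb, so the median gap was well under that mean distance. This was not particular to chromosome III. The median gap and the mean distance were 6.64 and 15.2 kb on chromosome II, and 7.40 and 17.3 kb on chromosome IV. Of 1037 gaps, 203 or 19.6% (17.3 to 22.1) were under 1 kb, compared with 16.6% (14.4 to 19.0) on chromosome II and 15.1% (13.1 to 17.5) on chromosome IV. In replicate 1 the share was 13.3% (11.2 to 15.9) against 8.77%, and in replicate 2 it was 10.1% (5.98 to 16.5) against 7.09%. A denser chromosome has shorter gaps in any case, and the part that density plays in these shares was not tested. No combined peaks were closer than 203 bp, and the smallest gaps of the replicates were 205 and 233 bp.

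**Figure D2:**
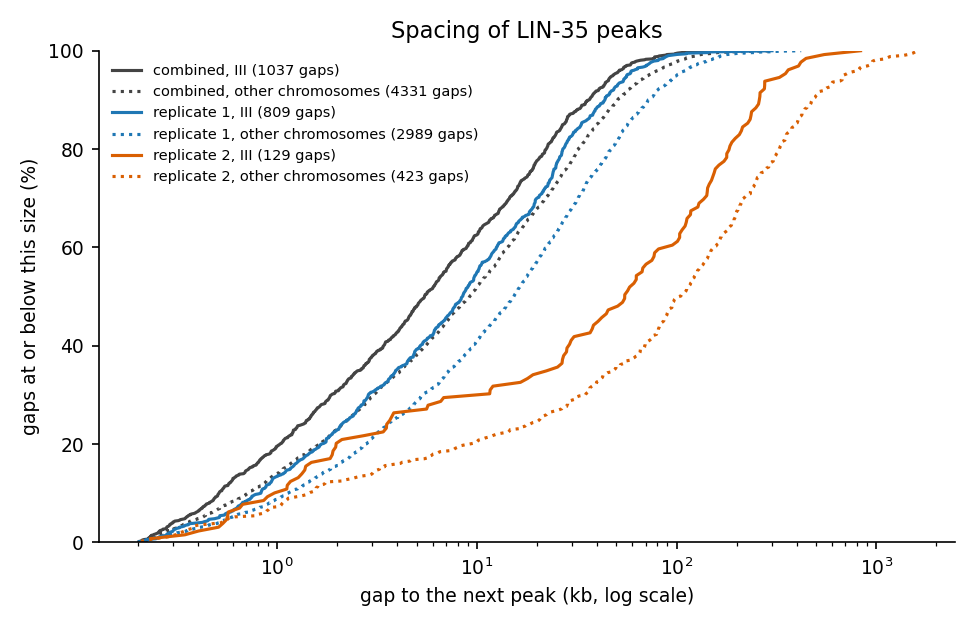
Curves give the percentage of gaps (vertical axis) at or below a given size in kb (horizontal axis, log scale) for chromosome III (solid) and the other 5 chromosomes together (dotted) in each list. In all 3 lists the median gap was shorter on chromosome III, at 5.47 against 9.20 kb in the combined list.

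Runs of peaks spaced at most 1 kb apart formed where several calls lined up. There were 103 pairs and 41 runs of 3 or more combined peaks, and the latter held 141 peaks or 13.6% of the list on this chromosome, against 8.74% on the others. The others were pooled and include the sparser chromosomes I and X, at 38.6 and 41.6 combined peaks per Mb. A denser chromosome forms runs more easily, and the part that density plays in this share was not tested. Replicate 1 had 20 runs of 3 or more peaks and replicate 2 had 2. The largest run held 7 peaks between 4171076 and 4176841, a span of 5766 bp of which 2351 bp were covered. Its best peak ranked 65 on the chromosome (q = 1.54e-12), and its peaks ranged from 2 to 846 bp in width. Replicate 1 and replicate 2 each had 3 peaks in this span, but 1 of the 7 combined peaks was found in both, 2 in replicate 1 alone, 2 in replicate 2 alone and 2 in neither. The replicates thus both marked this span while dividing it differently.

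The next runs held 5 peaks each and had uneven support. That at 62118 to 65630, near the left end, covered 1805 bp and had 3 replicate 1 peaks and no replicate 2 peak (best q = 1.34e-13). That at 12612340 to 12616342 had 1 peak in each replicate, and 4 of its 5 combined peaks were found in neither (best q = 9.89e-11). Another run of 5 at 7178191 to 7182234 had 4 peaks of replicate 1 and 2 of replicate 2 (best q = 2.35e-10). The runs with most calls were thus not all marked by both replicates.

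Long stretches had no peak at all. In the combined list the longest lay at 8450599 to 8630707 (180 kb), 9228838 to 9390961 (162 kb) and 968403 to 1080572 (112 kb). The second of these had no peak in any list, while the first had 1 replicate 1 peak and the third had 2. In replicate 1 the longest stretch without a peak was 9104286 to 9404769 (300 kb), followed by 9868540 to 10072138 (204 kb) and 931788 to 1077888 (146 kb), and these held 6, 3 and 2 combined peaks. In replicate 2 the longest was 1951887 to 2785897 (834 kb), within which replicate 1 had 37 peaks and the combined list 36. The other 2 of replicate 2, at 8129571 to 8678339 (549 kb) and 350079 to 794984 (445 kb), held 20 and 18 replicate 1 peaks.

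The bin from 9 to 10 Mb stood apart in how the lists compared, and it was singled out after its values were seen. It held 85 combined peaks, a number close to its neighbours, but 42 replicate 1 peaks and 7 replicate 2 peaks. The number of replicate 1 peaks was 49.4% of the number of combined peaks there, whereas in the other 13 bins it lay between 67.2% and 96.4%. In this bin 45 of the 85 combined peaks or 52.9% (42.4 to 63.2) overlapped no replicate peak, against 35.5% on chromosome III and 41.7% over all chromosomes. The last bin of the chromosome was near it with 46.9% (35.2 to 58.9). Of the 85 peaks, 9 or 10.6% had a q under 1e-05, the lowest such share of the 14 bins. That share was 14.1% in the last bin and 22.3% on the whole chromosome. Its unsupported peaks and its spacing were not particular to it. The unsupported peaks had a median width of 120 bp, against 119 bp in the bin from 4 to 5 Mb. Of its gaps, 24 or 28.6% were under 1 kb, against 23 or 29.1% in the bin from 12 to 13 Mb.

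Peak widths varied widely. Combined peaks ranged from 2 to 2438 bp, with a median of 159 bp and quartiles of 62.2 and 281 bp. The median was 164 bp in replicate 1 and 295 bp in replicate 2, where the narrowest peak had 165 bp. On the other chromosomes the medians were 150, 166 and 298 bp, close to those of chromosome III in each list. Of the combined peaks, 351 or 33.8% were narrower than 100 bp and 117 were narrower than 20 bp. In replicate 1, 257 peaks or 31.7% were under 100 bp, and in replicate 2 there were 0.

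Narrow peaks were the weak ones. Width and rank had a Spearman's rho of -0.82 over the 1038 combined peaks, -0.84 in replicate 1 and -0.72 in replicate 2, given as descriptions because both values come from the same reads. The median width was 407 bp at a q under 1e-05 and 121 bp above it, and no combined peak under 100 bp reached that q. Only 14 combined peaks were wider than 1 kb, and all 14 were among the 100 best of the chromosome. The narrowest combined peaks were 2 bp wide, and there were 10 of them, which ranked from 658 to 978.

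The widest peak of the weaker 50% by q stood out from this relation, and was chosen after its width was seen. It is the last peak of the chromosome, at 13778357 to 13779311, and was 955 bp wide but ranked 932 (q = 0.00698). Replicate 1 had a peak of 597 bp there with rank 312, and replicate 2 had none. Its end is also the highest position reached by any list, which was used as the length of the chromosome.

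**Figure D3:**
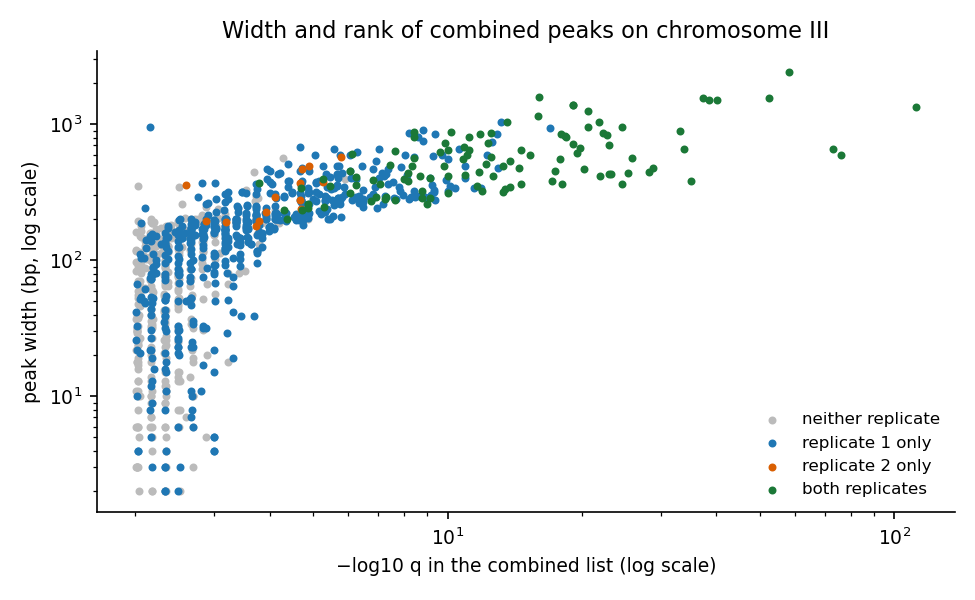
Each point is a combined peak of chromosome III, with −log10 q (horizontal axis, log scale) against its width in bp (vertical axis, log scale), coloured by the replicate lists it overlaps. Peaks found in both replicates (median width 492 bp) sit at the upper right, and those found in neither (median 75 bp) at the lower left.

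The 3 strongest regions were the same in all lists. The first, at 3866456 to 3867801 in the centre, was 1346 bp wide with a combined q of 1.60e-112. Its replicate 1 peak at 3866930 to 3867801 had q = 6.53e-83 and its replicate 2 peak at 3866747 to 3867769 had q = 1.05e-39. The second lay in the right arm at 10758850 to 10759440, with q of 6.74e-77, 3.26e-54 and 6.95e-28 in the combined list, replicate 1 and replicate 2. The third lay in the centre at 7854236 to 7854891, with q of 1.42e-73, 7.05e-53 and 6.67e-23. These regions ranked 1, 2 and 3 among the peaks of the chromosome in each list.

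Several of the remaining strong regions lay beside the first ones. At 3868305 to 3869872, a region of 1568 bp with rank 8 began 503 bp after the end of the strongest, and it ranked 9 in replicate 1 and 5 in replicate 2. At 10753830 to 10755401, a region of 1572 bp with rank 5 ended 3448 bp before the start of the second strongest, and it ranked 6 in both replicates. It overlapped 2 replicate 1 peaks and 1 replicate 2 peak. The closest of the other neighbours among the 10 best was 145 kb away, between the second strongest and the region at 10904086 to 10905591, which was 1506 bp wide and ranked 6 in the combined list, 7 in replicate 1 and 12 in replicate 2. Thus 4 of the 10 best regions formed 2 close pairs, 1 in the centre and 1 in the right arm.

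The other strong regions were spread over the chromosome. The region with rank 4 was the widest of all, with 2438 bp at 13462809 to 13465246, near the right end. It overlapped 2 peaks of each replicate, the better of which ranked 10 in both. The region with rank 7 at 7494840 to 7496350 ranked 13 in replicate 1 and 4 in replicate 2, and that with rank 10 at 12904801 to 12905461 ranked 11 and 8. The 10 best comprised 1 region of the left arm, 4 of the centre and 5 of the right arm, and the 50 best comprised 10, 27 and 13. Of the 10 best, 6 were wider than 1 kb and 8 had another combined peak within 1 kb.

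A single region of the left arm among the 10 best was uneven between replicates. At 1859527 to 1859911 the combined list had a peak of 385 bp with rank 9 (q = 7.25e-36). It ranked 4 in replicate 1 (q = 5.60e-33) but 48 in replicate 2 (q = 0.000327), where the peak was 229 bp wide. It was also isolated, as the nearest other combined peak lay 15301 bp away. In replicate 1 all of the 10 best combined regions ranked 13 or better, and in replicate 2 the 9 others ranked 12 or better. The reverse case, also picked after the values were seen, lay at 7101688 to 7102260: replicate 2 had a peak of 640 bp there with rank 13 (q = 2.25e-10), and replicate 1 had a peak of 81 bp with rank 601 (q = 0.00599). Because there is 1 library per list, neither difference can be compared with a spread between replicates.

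The wide regions were not all strong in the single replicates. The second widest, 1587 bp at 4470690 to 4472276, ranked 41 in the combined list (q = 9.24e-17). Replicate 1 had a peak of 175 bp within it that ranked 396, and replicate 2 one of 583 bp that ranked 55. The combined list can therefore hold a wide and well ranked region where each replicate shows a narrower call.

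**Figure D4:**
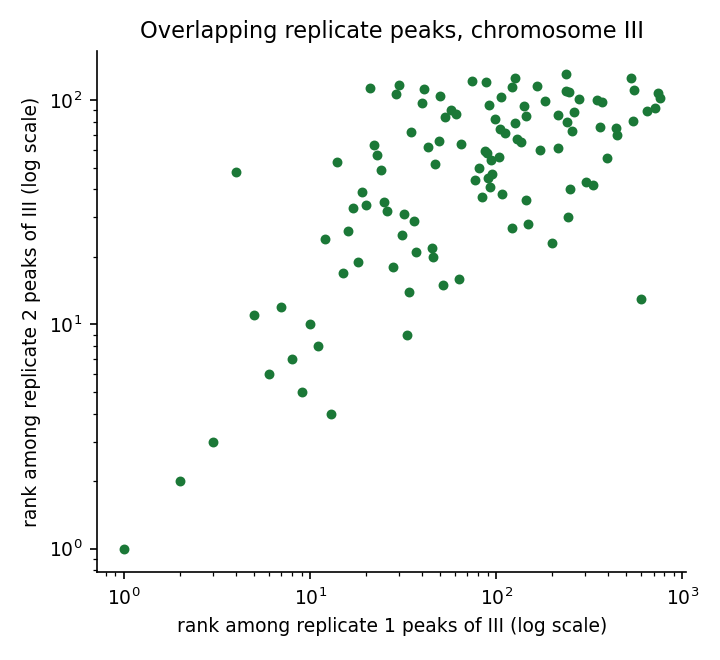
Each of the 109 points is a replicate 2 peak of chromosome III that overlaps a replicate 1 peak, placed by its rank among the replicate 1 peaks of the chromosome (horizontal axis, log scale) and among the replicate 2 peaks (vertical axis, log scale), where 1 is the lowest q. The first 3 points lie on equal ranks, and the point at 601 and 13 is the region at 7101688 to 7102260.

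Support of the combined peaks by the single replicates was graded by rank. The rule that made the combined list is not given, so its q and the replicate calls cannot be taken as independent. By an overlap of at least 1 bp, 110 of the 1038 combined peaks or 10.6% (8.87 to 12.6) were found in both replicates, against 8.65% over all chromosomes. Another 546 or 52.6% (49.6 to 55.6) were found in replicate 1 alone, against 48.3% over all chromosomes, and 14 or 1.35% (0.805 to 2.25) in replicate 2 alone, against 1.43%. The remaining 368 or 35.5% (32.6 to 38.4) overlapped no replicate peak, against 41.7% over all chromosomes and 43.2% (41.7 to 44.6) on the chromosomes other than III. On chromosomes II and IV, the most similar in peak density, 8.99% (7.37 to 10.9) and 9.58% (7.92 to 11.6) were found in both, and 40.4% (37.4 to 43.4) and 41.3% (38.3 to 44.4) in neither. The intervals of chromosome III overlapped those of II and IV for both classes. For peaks in neither, they did so only at their ends, and overlapping intervals do not show that shares are equal. None of these differences was tested.

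The 110 regions found in both replicates had a median width of 492 bp and a median q of 5.82e-13, and none was narrower than 200 bp. They made up 30.6% of the covered length. Those found in replicate 1 alone had a median of 184 bp and a median q of 0.000434, and those in replicate 2 alone 285 bp and 4.89e-05. Those in neither had a median of 75 bp and a median q of 0.00462, and 215 of the 368 were under 100 bp. Wide peaks overlap others more easily, and the part that width plays in these classes was not tested.

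When the combined peaks were ordered by q and divided into 10 groups of equal size, 76 of the first 104 or 73.1% (63.8 to 80.7) were found in both replicates. This share was 24.0% (16.8 to 33.1) in the second group, 7.77% in the third and 0.962% in the fourth, and no peak of the last 6 groups, ranked 416 to 1038, was found in both. Peaks found in neither took the opposite course, from 0 of 104 in the first group and 1 in the second to 43.3% in the sixth and 77.9% (69.0 to 84.8) in the last. All of the 20 best regions and 49 of the 50 best were found in both. The exception, at 4194838 to 4195783 (946 bp), ranked 40 in the combined list and 27 in replicate 1, and the nearest replicate 2 peak was 19491 bp away.

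**Figure D5:**
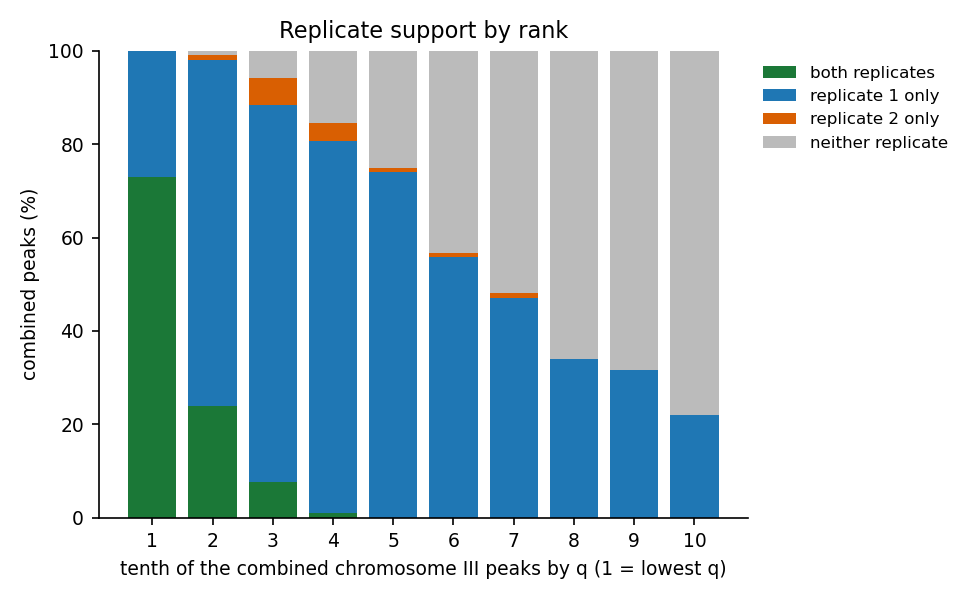
Stacked bars give the percentage of combined chromosome III peaks (vertical axis) found in both replicates, in 1 or in neither, for each of 10 equal groups of the list by q (horizontal axis, 1 is the lowest q). The share found in both falls from 73.1% in the first group to 0.962% in the fourth.

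Regions found in 1 replicate alone or in neither were mixed in rank with those found in both, which reached down to rank 343. After the exception above, the best found in replicate 1 alone were at 12425713 to 12426754 (1042 bp, rank 53) and at 10908435 to 10908908 (474 bp, rank 54), and in the latter case a replicate 2 peak lay 312 bp away. The best found in replicate 2 alone were at 4173901 to 4174471 (rank 185), inside the run of 7 peaks, and at 5203418 to 5203791 (rank 222). The best in neither were at 4216343 to 4216739 (397 bp, rank 180, q = 1.26e-06), at 6133487 to 6133686 (200 bp, rank 245, q = 1.38e-05) and at 12368407 to 12368607 (201 bp, rank 274, q = 2.25e-05). Their nearest replicate 1 peaks were 3399, 3592 and 480 bp away. Over all 368 unsupported peaks the nearest peak of either replicate lay at a median of 2.73 kb, and 80 of them or 21.7% (17.8 to 26.2) had one within 1 kb.

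Between the replicates themselves, most of the shorter list was contained in the longer. Of the 130 replicate 2 peaks on chromosome III, 109 or 83.8% (76.6 to 89.2) overlapped replicate 1, against 82.8% over all chromosomes. Of the 810 replicate 1 peaks, 109 or 13.5% (11.3 to 16.0) overlapped replicate 2, against 12.2% over all chromosomes. Both shares were close to the background. The overlap of replicate 2 was 15 of 16 peaks or 93.8% (71.7 to 98.9) in the left arm, 62 of 81 or 76.5% (66.2 to 84.4) in the centre and 32 of 33 or 97.0% (84.7 to 99.5) in the right arm. Most of the 21 replicate 2 peaks missing from replicate 1 thus lay in the centre, which held 62.3% of all replicate 2 peaks. Of the 14 combined peaks found in replicate 2 alone, 13 lay in the centre, which held 57.3% of all combined peaks. These counts are small and their differences were not tested.

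Where peaks of both replicates overlapped, their midpoints lay close together. The pairs were chosen by overlap, which itself limits how far apart midpoints can lie, so this closeness is in part set by the choice. Over the 109 pairs the midpoints differed by a median of 64 bp and at most by 440 bp, and 71 pairs were within 100 bp. The replicate 1 peak was the wider in 71 pairs, with medians of 397 and 324 bp. Ranks within the chromosome had a Spearman's rho of 0.56 and a Pearson's r of 0.41, again as a description over peaks that share the genome and the caller. Of the 10 best of each replicate, 7 were paired with each other.

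The combined list contained 661 of the 810 replicate 1 peaks or 81.6% (78.8 to 84.1), against 81.2% over all chromosomes, and 127 of the 130 replicate 2 peaks or 97.7% (93.4 to 99.2), against 98.6%. The 149 replicate 1 peaks outside it had a median width of 48 bp. The best of them lay at 4986954 to 4987191 (238 bp, q = 0.000431), 5533242 to 5533441 (200 bp, q = 0.000574) and 1807254 to 1807297 (44 bp, q = 0.000920), ranking 251, 267 and 292 in replicate 1. The 3 replicate 2 peaks outside it lay at 3179821 to 3180092, 3865922 to 3866181 and 7084963 to 7085162, ranking 105, 116 and 127. The second of them ended 274 bp before the strongest region of the chromosome. None of these 6 peaks overlapped the other replicate.

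The files also record a change of coordinates on this chromosome. A comment line in each list names 1 chromosome III peak whose internal structure changed in a liftover between genome builds. In the combined list the comment gives 835593 to 836129 and the peak with the same q is listed at 835594 to 836131, so the listed peak is shifted and 1 bp longer. The same holds in replicate 1 (835684 to 836079, listed at 835685 to 836081) and in replicate 2 (835755 to 835971, listed at 835756 to 835973). This peak ranked 47 in the combined list, 61 in replicate 1 and 87 in replicate 2.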

How the data were processed

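ChIP-seq of GFP-tagged LIN-35 gave 3 deposited peak lists, 1 for each of 2 precipitated samples and 1 combined; input files were not analysed here. Per the file headers, the authors called peaks with PeakSeq, coordinates are WormBase WS220 and a liftover was applied. Each peak has a deposited q-value and no height or summit. Not given in the sources used here: the aligner, versions, the control, and the rule that made the combined list. Depth is unknown.

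Rows of chromosome III were taken from each list. The length is the highest peak end in any list, 13779311 bp. Overlap meant at least 1 bp, and counts were checked with bedtools 2.31.1 and tested on simulated data (Python 3.11.15, pandas 2.3.3, scipy 1.17.1). A gap is the number of bases between 2 neighbouring peaks. Intervals are Wilson 95%. With 1 library per list no test was made.

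Named regions were the 10 strongest combined peaks by q, the 3 strongest in neither replicate, the 3 best of each replicate outside the combined list, the 3 widest, the richest and poorest bin, the 3 longest gaps and the 3 largest runs; others are said to be picked after their values were seen or stand as examples. The chromosome and these rules were chosen with earlier results of these data known. Alternatives were other overlap rules, a stricter q, a minimum width, other bins and arms, and each replicate alone.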

Additional observations from a re-analysis of the deposited data

How the results depend on the processing

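The order of the left arm, centre and right arm by density held in all 3 lists. With replicate 2 left out (the replicate 1 list alone) or replicate 1 left out, the chromosome's share of peaks ranged from 21.3% to 23.3% (19.3% combined), the densest bin over the mean from 1.45 to 1.70 (1.41), the left arm from 12.3% to 18.8% (16.0%), the centre from 54.8% to 62.3%, the right arm from 25.4% to 26.4%, the median width from 164 to 295 bp, the median gap from 8488 to 55025 bp, and combined peaks found in the remaining list from 11.9% to 63.2% (64.5% in either). At a q under 1e-05 the chromosome held 23.5% of combined peaks, with a median width of 407 bp and gap of 27790.5 bp, 44.6% in both replicates and 0.433% in neither. Among peaks of at least 100 bp these were 217 bp, 8415.5 bp, 16.0% and 22.3%. Bins of 500 kb gave a ratio of 1.70, and 3 equal parts gave 24.95%, 39.7% and 35.4% of peaks from left to right. Peaks found in both replicates (an alternative added later, with the data in view) gave a ratio of 1.88, in the bin from 10 to 11 Mb, and a left arm of 13.6%. A 50% reciprocal overlap, or midpoints within 100 bp, left 7.23% or 7.42% in both and 51.6% or 40.1% in neither, 57.7% or 54.6% of replicate 2 in replicate 1, 9.26% or 8.77% of replicate 1 in replicate 2, and (also added later) 53.8% or 50% of the best 104 in both. Against the 130 best replicate 1 peaks, 56.2% of each list overlapped the other. The causes of these changes were not tested. Of the 59 alternative values, 22 lay within the 95% interval of the reported one, some of those listed here among them. No paired analysis was possible because the inputs have no values in the lists read here, and the precipitated samples are a single group. Without a known depth, absence from a list cannot be read as absence of binding.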
